A study of Mus musculus with 8 samples.

Results

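The transcripts of 8 chemokine receptors, Ccr7, Ccr9, Cxcr3, Cxcr6, Ccr2, Cxcr5, Cxcr4 and Cx3cr1, were followed in T cells sorted from the pancreas of diabetic NOD mice. They were taken by gene symbol from the feature list of a droplet single-cell RNA-seq series, in which they make up 8 of 32285 features. Raw UMIs (unique molecular identifiers, 1 per captured transcript) of all 8 libraries were read in 3 gates of T cells, a T cell being a barcode with at least 2 UMIs over Cd3d, Cd3e, Cd3g, Trac, Trbc1 and Trbc2. The CD4 gate required a Cd4 UMI and no UMI of Cd8a or Cd8b1, the CD8 gate the reverse, and the Foxp3 gate at least 1 UMI of Foxp3, the transcription factor that defines regulatory T cells. The Foxp3 gate was set without regard to Cd4 and Cd8 and so overlaps the other gates.

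Chemokine receptors are G protein-coupled receptors that guide leukocytes along gradients of small secreted chemokines. CCR7 (ligands CCL19 and CCL21) takes naive and central memory T cells into lymph nodes, CCR9 (CCL25) guides thymocytes and gut-homing T cells, and CXCR5 (CXCL13) guides cells to B cell follicles. CXCR3 (CXCL9, CXCL10 and CXCL11), CXCR6 (CXCL16), CCR2 (CCL2 and CCL7) and CX3CR1 (CX3CL1) are carried by activated and memory T cells in inflamed tissue, where beta cells of inflamed NOD islets are known to make CXCL10, and CXCR4 (CXCL12) is found on most T cells.

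All mice were of the NOD strain, which develops spontaneous autoimmune diabetes, and the labels call every animal female. The genotype label gives 3 to 4 months of age for all 8 libraries, while the treatment text gives 3 to 5 months for the vehicle and PPCA mice. An onset library (blood glucose 250 mg/dl) and an active diabetes library (above 600 mg/dl) came from mice taken on day 1 with no treatment named. The other 6 libraries came from mice enrolled at 200 to 300 mg/dl and given either vehicle (ethanol, Tween and polyethylene glycol) or PPCA, the combination of the MDM2 inhibitor nutlin-3 at 50 mg/kg and the WEE1 inhibitor MK-1775 at 25 mg/kg. Mice were dosed every day and taken the day after the last dose, on days 2, 3 and 4, with 1 vehicle and 1 PPCA library on each day. In every group the cells were sorted as CD45+ CD3+ TCR-beta+ and frozen before library preparation. The number of mice behind each library is not given in the sources used here, so the spread between libraries need not be that between animals.

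The deposited matrices held 80470 barcodes, 7023 to 13129 per library, and 36934580 to 67603740 UMIs per library. After filtering, 70552 T cells remained, of which 27451 fell in the CD4 gate (2626 to 4724 per library), 22275 in the CD8 gate (1659 to 4449) and 2588 in the Foxp3 gate (223 to 481). Median UMIs per cell ran from 3840 to 6151 in the CD4 gate, 4266 to 7246 in the CD8 gate and 3147 to 5224 in the Foxp3 gate. No pair of libraries shared more than 41 barcodes. Although all mice are labelled female, 4 libraries (day 2 vehicle, both of day 3, and day 4 PPCA) held 186 to 273 CPM (counts per 1e+06 UMIs) of 4 Y-linked genes and at most 0.738 CPM of Xist, whereas the other 4 libraries held 418 to 622 CPM of Xist and at most 0.166 CPM of the Y-linked genes. The PPCA and vehicle libraries of days 2 and 4 therefore differ in this respect and those of day 3 do not. Results are given with and without the 4 libraries with Y-linked RNA where that can be done.

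The promoters of Ccr9, Cxcr6, Ccr2 and Cxcr3, all 4 higher in CD8 than in CD4 T cells, are shown for their sequence context, with the coding strand of each gene read 5′ to 3′ from 250 bases before to 50 bases after its start, as RefSeq gives them on build GRCm38.p6. Capitals mark matches, on either strand, to the core letters of 4 motif families of T cell transcription factors: GGTGTG (T-box factors), TGTGGT (RUNX), CTTTGNT (TCF and LEF) and CCNCNCCC (KLF). Of 32851 promoters of the same length, 19% held the T-box letters, 16.8% the RUNX letters, 18.6% the TCF and LEF letters and 49.5% the KLF letters, so each match is common and is a description of the letters only. The Ccr9 window (chr9:123766961-123767260, plus strand) held 1 T-box and 1 KLF match, the Cxcr6 window (chr9:123806227-123806526, plus strand) 1 RUNX match and 1 TCF and LEF match, the Ccr2 window (chr9:124101933-124102232, plus strand) 1 TCF and LEF match, and the Cxcr3 window (chrX:101734098-101734397, minus strand) 2 RUNX matches.
Ccr9: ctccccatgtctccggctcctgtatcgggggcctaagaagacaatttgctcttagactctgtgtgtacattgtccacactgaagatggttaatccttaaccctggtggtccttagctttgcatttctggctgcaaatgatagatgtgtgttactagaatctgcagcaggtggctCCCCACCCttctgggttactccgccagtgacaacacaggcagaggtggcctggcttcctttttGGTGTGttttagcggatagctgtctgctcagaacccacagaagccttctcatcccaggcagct
Cxcr6: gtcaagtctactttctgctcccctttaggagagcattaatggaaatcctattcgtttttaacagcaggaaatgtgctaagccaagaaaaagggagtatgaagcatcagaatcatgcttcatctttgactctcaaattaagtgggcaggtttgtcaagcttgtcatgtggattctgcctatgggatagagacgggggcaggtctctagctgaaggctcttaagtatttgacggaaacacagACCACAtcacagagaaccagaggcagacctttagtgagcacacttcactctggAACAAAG
Ccr2: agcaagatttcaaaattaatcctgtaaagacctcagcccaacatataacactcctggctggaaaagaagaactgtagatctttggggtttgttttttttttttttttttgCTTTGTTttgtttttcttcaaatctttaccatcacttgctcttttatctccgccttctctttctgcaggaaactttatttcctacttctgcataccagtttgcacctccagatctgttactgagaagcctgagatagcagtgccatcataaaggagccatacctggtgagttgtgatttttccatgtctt
Cxcr3: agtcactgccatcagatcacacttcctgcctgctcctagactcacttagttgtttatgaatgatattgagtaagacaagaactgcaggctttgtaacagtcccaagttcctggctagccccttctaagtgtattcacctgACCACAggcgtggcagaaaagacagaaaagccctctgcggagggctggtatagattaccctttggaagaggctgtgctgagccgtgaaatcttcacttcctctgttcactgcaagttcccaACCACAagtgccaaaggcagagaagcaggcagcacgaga
Ccr9 and Cxcr6 are close neighbours on chromosome 9, with only Fyco1 between them in the RefSeq gene order, and Xcr1 and Ccr1 follow Cxcr6. Ccr2 lies beside Ccr3 on the same chromosome, Cx3cr1 lies beside Ccr8, and Cxcr5 is also on chromosome 9. Ccr7 is on chromosome 11, Cxcr4 on chromosome 1 and Cxcr3 on the X chromosome. Of the other promoters in the RefSeq table, that of Cxcr4 held 3 KLF matches and that of Cx3cr1 held 1 RUNX match.

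The first comparison set CD8 against CD4 T cells of the same library, over the raw UMIs of each gate summed per library. CD8 T cells carried far more Ccr9, Cxcr6 and Cx3cr1 transcript, and more Cxcr3 and Ccr2, while Ccr7 was slightly lower. All 8 receptors were tested and 7 passed an adjusted p of 0.05 in edgeR's quasi-likelihood test with the library as a block, 6 higher and 1 lower in CD8 T cells. Of all 11570 genes tested, 46.4% passed, 23.4% higher and 23% lower. The median log2 difference was 1.75 over the 8 receptors and 0.000283 over all genes. Because the values are sums over many cells, fewer cells carrying a transcript and less RNA per cell cannot be told apart in them.

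Ccr9 showed the widest separation of the gates. Its level in the 8 libraries was 42.8 to 128 CPM in the CD8 gate (median 95.8) and 2.43 to 6.03 CPM in the CD4 gate (median 3.42), so the gates did not overlap. The difference was 24.7-fold, or 4.63 on the log2 scale (SE 0.0800, adjusted p 3.11e-15), with the CD8 gate higher in 8 of 8 libraries. Counts of libraries given with a test are after TMM scaling, edgeR's correction for library composition, unless CPM is named. Thinned to 2000 UMIs per cell, 8.04% to 19.4% of CD8 T cells had a Ccr9 UMI against 0.439% to 1.00% of CD4 T cells. Without thinning the shares were 13.9% to 37.5% and 0.628% to 2.34%, at the unequal depths given above, and thinning left out 13 to 97 CD8 and 11 to 91 CD4 cells per library.

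Cxcr6, the receptor of the membrane-bound chemokine CXCL16, was the next widest. It ran from 75.7 to 348 CPM in CD8 T cells (median 131) and from 7.19 to 24.5 CPM in CD4 T cells (median 14.5), again with no overlap. The difference was 11.4-fold (log2 3.51, SE 0.136, adjusted p 1.35e-11). Among CD8 T cells the onset library and the PPCA library of day 2 stood highest, at 305 and 348 CPM, and both day 4 libraries and the vehicle library of day 3 stood lowest. The share of CD8 T cells with a Cxcr6 UMI at 2000 UMIs was 34.0% (95% exact Clopper-Pearson interval 32.1% to 35.9%) in the PPCA library of day 2 and 11.4% (10.2% to 12.7%) in the vehicle library of day 4.

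Cxcr3, the receptor for interferon-induced chemokines, was measured at 29.3 to 125 CPM in CD8 T cells (median 41.1) and 8.0 to 27.5 CPM in CD4 T cells (median 15.6). Its difference was 3.40-fold (log2 1.77, SE 0.177, adjusted p 8.26e-07), and the CD8 gate was the higher in 8 of 8 libraries. Ccr2, better known as the receptor that brings monocytes into tissue, ran from 13.8 to 71.8 CPM in CD8 T cells (median 24.7) and from 6.58 to 18.6 CPM in CD4 T cells (median 9.17). It differed by 3.34-fold (log2 1.74, SE 0.193, adjusted p 2.33e-06), again in 8 of 8 libraries. Across libraries the gates did not overlap for Cxcr3 and overlapped for Ccr2, whose separation rests on the difference within each library. The within-library log2 differences of Cxcr3 spanned 0.71 to 2.81 and those of Ccr2 0.64 to 2.93, with the onset library the highest for both.

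Cx3cr1, a receptor of cytotoxic effector cells, was scarce in these libraries, at 1.82 to 9.38 CPM in CD8 T cells (median 4.09) and 0.0805 to 1.54 CPM in CD4 T cells (median 0.476). The CD8 gate was 6.26-fold higher (log2 2.65, SE 0.347, adjusted p 1.42e-05) and higher in 8 of 8 libraries. In the CD4 gate single libraries held between 1 and 37 Cx3cr1 UMIs, so the ratio of any 1 library is imprecise. Cxcr5, the follicle-homing receptor, was at 1.14 to 7.65 CPM in CD8 T cells (median 3.61) and 0.772 to 3.65 CPM in CD4 T cells (median 2.45). Its 1.5-fold difference (log2 0.59, SE 0.207, adjusted p 0.0301) held in 6 of 8 libraries after TMM scaling and in 5 of 8 by CPM. The Cxcr5 call was lost when the active library (adjusted p 0.109), the vehicle library of day 2 (0.104), the PPCA library of day 3 (0.0828) or the vehicle library of day 4 (0.0562) was left out, and also without doublet removal (0.0562).

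Ccr7 was the receptor that was lower in CD8 T cells. It ran from 176 to 308 CPM in the CD8 gate (median 226) and from 218 to 383 CPM in the CD4 gate (median 266). The ranges overlapped across libraries, but within each library the CD8 gate was lower, by 1.20-fold overall (log2 -0.27, SE 0.0389, adjusted p 4.16e-05, higher in 0 of 8). At 2000 UMIs, 26.4% to 40.6% of CD8 and 34.4% to 47.7% of CD4 T cells had a Ccr7 UMI. Cxcr4 did not pass the test, at 24.6 to 107 CPM in CD8 T cells (median 53.7) and 20.5 to 168 CPM in CD4 T cells (median 51.7). Its log2 difference was -0.01 (95% interval -0.24 to 0.22, adjusted p 0.937). CD8 T cells had slightly more Cxcr4 in 6 of 8 libraries, but less in both day 4 libraries, with log2 differences of -0.56 and -0.59. Without the 2 day 4 libraries Cxcr4 was higher in CD8 T cells by 0.25 on the log2 scale (edgeR adjusted p 0.0166). The libraries left out were those of opposite sign, so this pass depends on that choice. Of 8 early-response genes, which are induced within minutes of a stimulus or of tissue handling, 7 were lower in CD8 T cells (list median log2 -0.54), against 23% of all genes. The part of these 8 genes in the Cxcr4 values was not tested.

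Without the 4 libraries with Y-linked RNA the log2 differences were 4.51 for Ccr9, 3.81 for Cxcr6, 2.50 for Cx3cr1, 2.25 for Cxcr3, 2.28 for Ccr2 and -0.34 for Ccr7, and each of these still passed. The Cxcr5 difference was then 0.72, with an adjusted p of 0.0555. Lists of other cell types were summed in both gates. The B cell list came to 11.2 to 26.5 CPM in CD8 and 1.69 to 3.45 CPM in CD4 T cells, with Cd79b making up nearly all of it in CD8 T cells and leading it in 7 of 8 CD4 sums. The myeloid list summed to 2.71 to 10.4 CPM in CD8 and 4.67 to 10.3 CPM in CD4 T cells, with Adgre1 at 0 in all 8 CD8 sums. The natural killer list summed to 25.9 to 118 CPM in CD8 and 0.776 to 5.12 CPM in CD4 T cells, mostly Klrk1, a receptor that activated CD8 T cells also carry, while Ncr1 stayed at or below 1.86 CPM. The list of pancreatic exocrine and islet genes, led in most sums by Ctrb1 and otherwise by Prss2, both digestive protease genes, summed to 4.90 to 254 CPM in CD4 and 8.93 to 130 CPM in CD8 T cells. The part of these lists in the receptor differences was not tested. Among 54 B cell-like barcodes, which should lack most of these receptors, 0 had a UMI of Ccr9, Cxcr3, Cxcr6, Ccr2 or Cx3cr1. This allows up to 5.56% of barcodes with such a UMI, at median depths of 2975 to 6596.5 UMIs per library. It bounds detection at that depth and not the share of cells that carry the transcript. Of the same 54 barcodes, 20 had Ccr7, 21 Cxcr4 and 11 Cxcr5, receptors that B cells are known to carry. Of 12 myeloid-like barcodes, 11 had a UMI of Ccr2, the monocyte receptor.

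**Figure D1:**
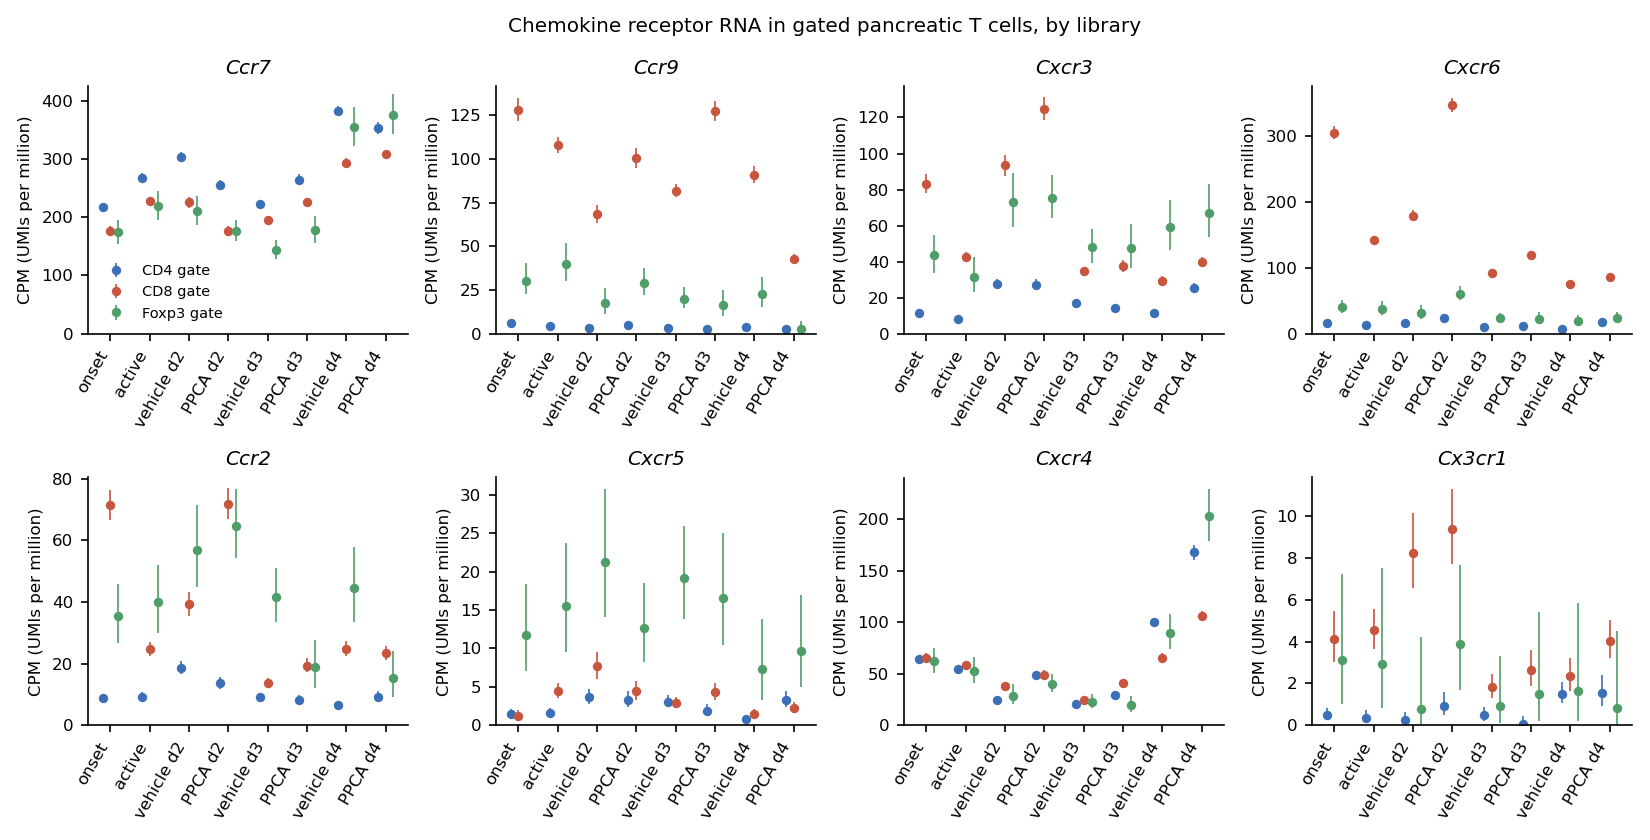
Level of each receptor (CPM of the gate's summed UMIs, vertical axis from 0) in the CD4, CD8 and Foxp3 gates of each library, with exact Poisson 95% intervals that cover counting error only. Ccr9 sits at 42.8 to 128 CPM in CD8 T cells and at 2.43 to 6.03 CPM in CD4 T cells, whereas the Cxcr4 ranges of the 2 gates overlap.

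**Figure D2:**
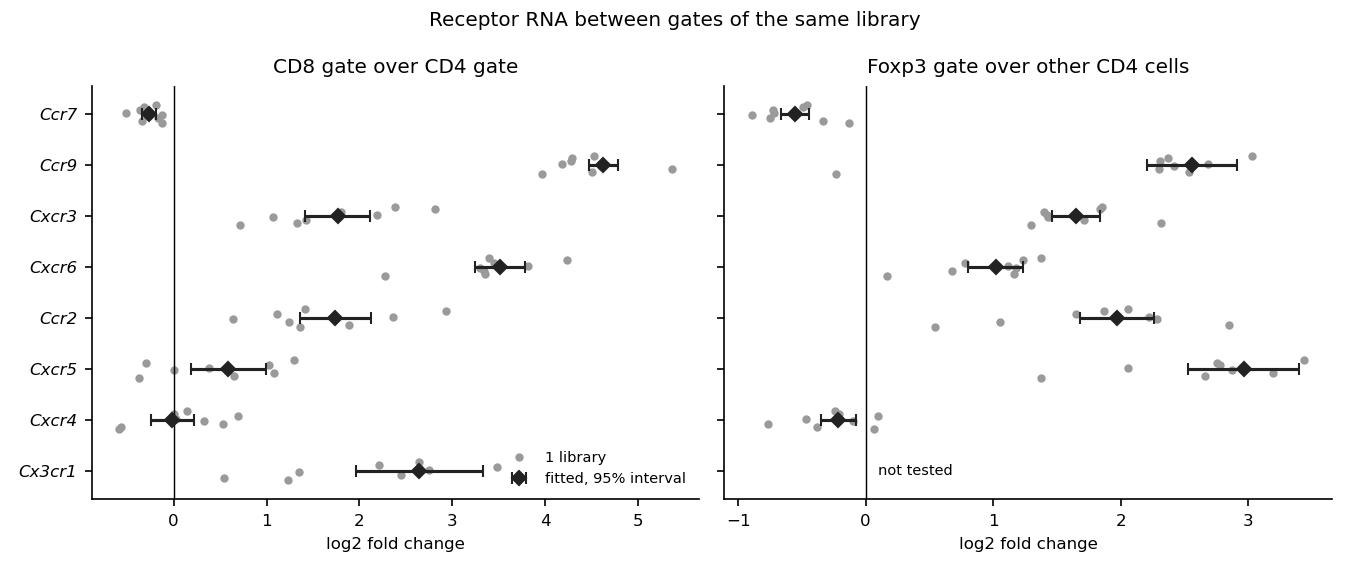
Log2 difference of each receptor between CD8 and CD4 T cells, and between Foxp3 T cells and other CD4 T cells, with the fitted value and its 95% interval and 1 point per library. Ccr9 is the farthest right in the first comparison at 4.63 and Cxcr5 in the second at 2.96, and Ccr7 lies left of 0 in both.

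The second comparison set T cells with a Foxp3 UMI against CD4-gated T cells without one, within each library. Foxp3 T cells had more Cxcr5, Ccr9, Ccr2, Cxcr3 and Cxcr6 and less Ccr7 and Cxcr4, but the Cxcr6 call was lost (log2 0.46, adjusted p 0.106) when Foxp3 T cells were held to those in the CD4 gate. Of the 7 receptors tested, 7 passed the edgeR test, 5 higher and 2 lower, and Cx3cr1, with 1 to 8 UMIs per library in the Foxp3 gate, was too scarce to enter. Of 10659 genes tested, 38.4% passed, 19.1% higher and 19.3% lower. The median log2 difference was 1.65 over the 7 receptors and -0.01 over all genes.

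Cxcr5, which on regulatory cells marks the follicular subset, ran from 7.27 to 21.3 CPM in Foxp3 T cells (median 14.1) and from 0.623 to 2.95 CPM in the other CD4 T cells (median 1.52), with no overlap. The difference was 7.80-fold (log2 2.96, SE 0.221, adjusted p 2.03e-12, 8 of 8 libraries), although single libraries held only 9 to 42 Cxcr5 UMIs in the Foxp3 gate. Ccr9 was at 2.43 to 39.8 CPM against 2.53 to 4.89 CPM and differed by 5.89-fold (log2 2.56, SE 0.181, adjusted p 6.19e-13). The PPCA library of day 4, with 3 Ccr9 UMIs among its Foxp3 T cells, was the only one of the 8 in which they were not higher. Ccr2 was at 15.4 to 64.7 CPM against 4.94 to 15.7 CPM, a 3.93-fold difference (log2 1.97, SE 0.148, adjusted p 2.22e-12, 8 of 8 libraries). The Ccr2 level of Foxp3 T cells was lowest in the PPCA libraries of days 3 and 4, at 18.8 and 15.4 CPM, and 35.4 CPM or more in the other 6.

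Cxcr3 was at 31.7 to 75.4 CPM in Foxp3 T cells and 7.50 to 24.8 CPM in the other CD4 T cells, again with no overlap, and differed by 3.13-fold (log2 1.65, SE 0.0958, adjusted p 6.87e-15). Cxcr6 ran from 18.6 to 60.8 CPM against 6.90 to 24.8 CPM, a 2.03-fold difference (log2 1.02, SE 0.109, adjusted p 4.64e-09). Both were higher in 8 of 8 libraries. Ccr7 was lower in all 8 after TMM scaling and in 7 of 8 by CPM, at 144 to 375 CPM against 218 to 385 CPM (log2 -0.55, SE 0.0575, adjusted p 2.71e-09). Cxcr4 was at 19.6 to 203 CPM against 20.8 to 166 CPM, a small difference (log2 -0.21, SE 0.0704, adjusted p 0.0162). Foxp3 T cells were the higher for Cxcr4 in 2 of 8 libraries after TMM scaling and in 3 of 8 by CPM, among them the PPCA library of day 4 (203 against 166 CPM). The Cxcr4 call was lost when the PPCA library of day 2 (adjusted p 0.0658) or the vehicle library of day 4 (0.0652) was left out.

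Of the 2588 Foxp3 T cells, 1127 were also in the CD4 gate and 265 in the CD8 gate, and the rest were in neither. When the comparison was held to the Foxp3 T cells of the CD4 gate, the log2 differences were 3.23 for Cxcr5, 2.14 for Ccr9, 2.01 for Ccr2, 1.73 for Cxcr3, -0.58 for Ccr7 and -0.39 for Cxcr4, all still past the threshold. That of Cxcr6 did not pass. The Foxp3 T cells of the CD4 gate, 99 to 201 per library, held only 0 to 32 Ccr9, 4 to 25 Cxcr5 and 8 to 58 Ccr2 UMIs. Without the 4 libraries with Y-linked RNA the differences were 3.10 for Cxcr5, 2.77 for Ccr9, 2.28 for Ccr2, 1.83 for Cxcr3, 1.23 for Cxcr6, -0.52 for Ccr7 and -0.35 for Cxcr4. As a check of the gate, 6 of 6 genes of the regulatory list were higher in Foxp3 T cells, against 19.1% of all genes, Ctla4 by 9.84-fold. The B cell list summed to 4.85 to 19.2 CPM and the myeloid list to 2.26 to 10.6 CPM in Foxp3 T cells, and the part of either in the Cxcr5 and Ccr2 differences was not tested.

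The wider family was read from a list of 15 other chemokine receptor genes. In CD8 against CD4 T cells 7 of them could be tested, of which 1 was higher and 4 were lower, against 23.4% and 23% of all genes. Those lower were Ccr6 (log2 -2.82), Ccr4 (-2.51), Ccr8 (-2.16) and Cxcr2 (-1.05), of which CCR6 is known from Th17 cells and CCR4 and CCR8 from Th2 and regulatory T cells. In Foxp3 T cells 5 of the 6 tested were higher, among them Ccr6 (log2 3.58), Ccr8 (2.97), Ccr4 (2.27) and Ccrl2 (2.26), and Cxcr2 was lower (-1.0), against 19.1% and 19.3% of all genes. The median of the list was -1.05 in the first comparison and 2.26 in the second, against 0.000283 and -0.01 over all genes. The 2 comparisons share CD4 T cells.

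Genes that act with chemokine receptors in homing were read in the same way. Of 18 homing genes tested in CD8 against CD4 T cells, 8 were higher and 3 lower, against 23.4% and 23% of all genes. The integrin genes Itga1 (log2 4.68) and Itgae (4.28), whose products bind collagen and E-cadherin in tissue, led with Gpr15 (2.48), a gut and skin homing receptor. Smaller rises included Selplg (0.45), Itgal (0.24), Gpr18 (0.16) and Itgb2 (0.12). Gpr183, a receptor for oxysterols (-1.12), S1pr1, the receptor for exit from tissue (-0.57), and Cd44 (-0.47) were lower. The median of the 18 was 0.10. Of 7 chemokine ligand genes tested, 4 were higher and none lower in CD8 T cells, against 23.4% and 23% of all genes. They were Xcl1, Ccl5, Ccl4 and Ccl3, higher by 28.8-fold, 18.5-fold, 12.2-fold and 9.98-fold. Of 25 genes of receptor signalling, from G protein subunits to RGS proteins, 5 were higher and 12 lower in CD8 T cells (median log2 -0.06), against 23.4% and 23% of all genes. In Foxp3 T cells 11 were higher and 8 lower (median 0.01), against 19.1% and 19.3%.

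The number of the 8 receptors detected per cell was counted at 2000 UMIs. Cells with at least 2 of them made up 15.2% to 34.6% of CD8 T cells (median 22.7%), 3.76% to 15.1% of CD4 T cells (median 6.62%) and 6.76% to 16.3% of Foxp3 T cells (median 11.6%). Within each of the 8 libraries the CD8 share was above the CD4 share. The CD8 share was highest in the PPCA library of day 2 (34.6%) and the onset library (32.8%) and lowest in the vehicle library of day 3 (15.2%). Cells with no UMI of any of the 8 made up 27.4% to 43.6% of CD8 and 37.6% to 57.6% of CD4 T cells, which at this depth does not show that they lack the receptors.

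To see which receptors shared cells, cells of the CD4 and CD8 gates with a UMI of 1 receptor were set against equally many without one, matched by library, gate and total UMIs, and each set was summed per library. The receptors fell into a group with Ccr7 and Ccr9 and a group with Cxcr3, Cxcr6, Ccr2 and Cx3cr1, while Cxcr4 varied little with the others and Cxcr5 had a pattern of its own. Between 178 and 2776 pairs per library were matched for Ccr7, Ccr9, Cxcr3, Cxcr6, Ccr2 and Cxcr4, 36 to 111 for Cxcr5, and 19 to 70 for Cx3cr1, for which 6 libraries reached the minimum of 30 pairs. Ccr7-positive cells, 3050 to 5155 per library, outnumbered the pairs that could be matched. The 2 directions of a receptor pair rest largely on the same cells. Positive cells of both gates were pooled, and the grouping was not read within each gate. Without thinning, the median share with a Ccr9 UMI was 30.1% of CD8 and 1.37% of CD4 T cells. It was 36.2% and 3.29% for Cxcr6 and 1.33% and 0.174% for Cx3cr1.

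Ccr7-positive cells had more Ccr9 (log2 0.63, SE 0.0359, adjusted p 3.47e-13) and slightly more Cxcr4 (0.21), each in 8 of 8 libraries. They had less Ccr2 (log2 -3.46), Cx3cr1 (-2.64), Cxcr3 (-2.00) and Cxcr6 (-1.82), in 8 of 8 libraries, and less Cxcr5 (-0.57, adjusted p 0.0428), in 6 of 8. All 7 other receptors passed, 2 higher and 5 lower, where 24.6% of genes passed, 12.4% higher and 12.2% lower. The Cxcr5 call was lost without the 4 libraries with Y-linked RNA (log2 -0.29, adjusted p 0.519) and without both day 4 libraries (-0.34, 0.197). Ccr9-positive cells had more Ccr7 (log2 0.30, adjusted p 7.03e-09) and less Ccr2 (-3.60), Cxcr3 (-3.11), Cx3cr1 (-2.72), Cxcr5 (-1.62) and Cxcr6 (-1.0), and Cxcr4 differed by 0.06 (adjusted p 0.472). Here 6 of 7 receptors passed, 1 higher and 5 lower, against 16% of genes, 6.99% higher and 8.96% lower.

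Cxcr3-positive cells had more Ccr2 (log2 2.78, SE 0.140, adjusted p 5.16e-14), Cxcr6 (1.77), Cx3cr1 (1.71) and Cxcr5 (1.36), and less Ccr9 (-3.10), Ccr7 (-1.16) and Cxcr4 (-0.27). Thus 7 of 7 passed, 4 higher and 3 lower, against 38% of genes, 17.7% higher and 20.4% lower. Cxcr6-positive cells had more Ccr2 (log2 3.30, SE 0.133, adjusted p 3.99e-14), Cxcr3 (1.55) and Cx3cr1 (1.51), and less Cxcr5 (-0.95), Ccr7 (-0.61) and Cxcr4 (-0.25). For them 6 of 7 passed, 3 higher and 3 lower, against 25.4% of genes, 12.2% higher and 13.2% lower. Ccr9 differed in Cxcr6-positive cells by -0.20 (adjusted p 0.175), and by -0.33 (adjusted p 0.0253) without the libraries with Y-linked RNA. Cxcr3-positive and Cxcr6-positive cells thus differed in their Ccr9, at -3.10 and -0.20, and this difference was not tested. In the other direction, Ccr9-positive cells had less of both Cxcr3 and Cxcr6, as given above.

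Ccr2-positive cells had more Cx3cr1 (log2 2.86), Cxcr6 (2.20) and Cxcr3 (2.12) and less Ccr9 (-3.04), Ccr7 (-2.29) and Cxcr4 (-0.61), so that 6 of 6 receptors tested passed, 3 higher and 3 lower, against 38.4% of genes, 19.3% higher and 19.1% lower. Cx3cr1-positive cells had more Ccr2 (log2 1.84), Cxcr6 (1.42) and Cxcr3 (1.30) and less Ccr7 (-1.25), each in 6 of 6 libraries, and Cxcr4 differed by -0.49 (adjusted p 0.122). Here 4 of 5 passed, 3 higher and 1 lower, against 11.8% of genes, 5.21% higher and 6.64% lower. Cxcr5-positive cells had more Cxcr3 (log2 1.05, adjusted p 1.59e-05) and less Cxcr6 (-0.93), Ccr9 (-0.92) and Ccr7 (-0.43), and Ccr2 (-0.03) and Cxcr4 (0.09) did not pass. That was 4 of 6, 1 higher and 3 lower, against 6.26% of genes, 3.75% higher and 2.51% lower. Without the libraries with Y-linked RNA the Cxcr3 and Ccr7 differences of Cxcr5-positive cells were 0.99 (adjusted p 0.0704) and -0.45 (adjusted p 0.0937). Cxcr4-positive cells differed least from their negative counterparts: Ccr7 was higher (log2 0.11), Ccr2 (-0.55), Cxcr6 (-0.42) and Cxcr3 (-0.32) were lower, and Ccr9 (0.09), Cxcr5 (0.16) and Cx3cr1 (-0.76, adjusted p 0.0572) did not pass. These 4 of 7, 1 higher and 3 lower, stand against 4.08% of genes, 1.85% higher and 2.23% lower.

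**Figure D3:**
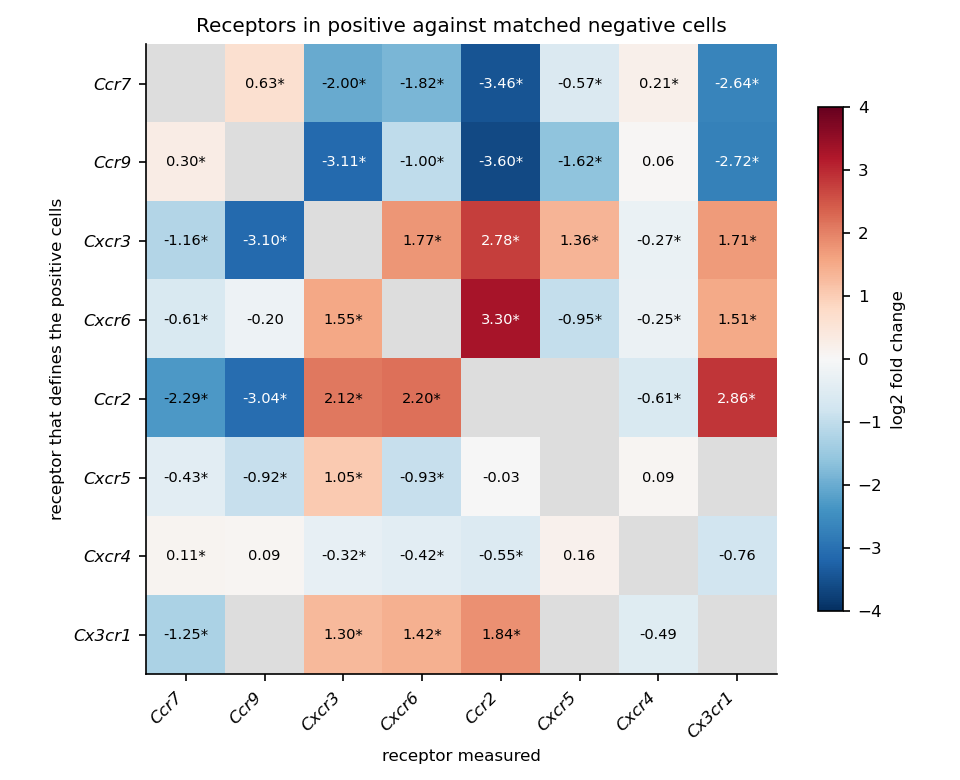
Log2 difference of each receptor (columns) between cells with and without a UMI of another receptor (lines of the grid), matched by library, gate and total UMIs, with an asterisk at an adjusted p under 0.05 and grey where not tested. Ccr7 and Ccr9 are lower in Cxcr3-positive and Ccr2-positive cells, down to -3.10 for Ccr9 in Cxcr3-positive cells, and Cxcr3, Cxcr6, Ccr2 and Cx3cr1 are higher in one another's cells, up to 3.30 for Ccr2 in Cxcr6-positive cells.

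Beyond the receptors, the genes that accompanied each of them were named by a fixed rule of size and sign. Ccr7-positive cells had more Igfbp4 (log2 0.54), the actinin gene Actn1 (0.54), Rapgef4 (0.54), Auts2 (0.53) and Pik3ip1 (0.50), an inhibitor of PI3 kinase, and less of the galectin gene Lgals3 (-3.74), Ccl3 (-3.64) and S100a4 (-3.50). All 7 genes of the naive T cell list were higher in them, among them Lef1 (0.48) and Tcf7 (0.31), and 11 of 11 effector genes tested were lower, among them Ccl5 (-3.18) and the T-box factor gene Tbx21 (-1.86), against 12.4% of all genes higher and 12.2% lower. Ccr9-positive cells had more Tmie (0.92), the integrin gene Itgae (0.88), Rgcc (0.77), Ggt1 (0.76), Tmem108 (0.66) and Cxxc5 (0.66), and less Ccl3 (-4.44), Ccl4 (-4.33) and Ccl5 (-4.03). In them 6 of 7 naive genes were higher and 9 of 11 effector genes lower, against 6.99% and 8.96% of all genes. Itgae was lower in Ccr7-positive cells (-0.27) and higher in Ccr9-positive cells. The list medians of naive genes were 0.42 and 0.30 and those of effector genes -2.79 and -2.56, where the medians over all genes were 0.01 and 0.01.

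Cxcr3-positive cells had more of the calcium-binding protein genes S100a4 (log2 3.17) and S100a6 (3.07), Lgals3 (3.09), Itga1 (2.65) and Tcrg-C4 (2.56), a T cell receptor gamma constant gene, and less Pdlim4 (-2.42) and Igfbp4 (-2.31). Cxcr6-positive cells had more Itga1 (4.81), S100a4 (4.07), Lgals3 (3.89), Tcrg-C2 (3.86) and S100a6 (3.16), and less Id3 (-0.96), Atp1b1 (-0.81) and Ifngr2 (-0.77). Ccr2-positive cells had more of the granzyme genes Gzma (5.88) and Gzmb (4.62), Maf (3.18), Fgl2 (3.14) and S100a4 (3.08), and less Auts2 (-3.21) and Plaur (-3.06). Their matched negative cells held only 29 Gzma and 32 Gzmb UMIs over 8 libraries, too few for a steady fold of either granzyme gene. In each of the Cxcr3, Cxcr6 and Ccr2 sets 7 of 7 naive genes were lower, against 20.4%, 13.2% and 19.1% of all genes. Of the pancreatic list 2 genes could be tested in Ccr2-positive cells and both were higher (list median 1.03), and their part in the other values was not tested. Effector genes were higher in 11 of 12 tested for Cxcr3, 12 of 12 for Cxcr6 and 11 of 11 for Ccr2, against 17.7%, 12.2% and 19.3% of all genes, with list medians of 1.60, 1.62 and 2.38. Tbx21 was higher by 1.85 with Cxcr3, 1.09 with Cxcr6 and 1.72 with Ccr2, and Pdcd1, which encodes the checkpoint receptor PD-1, by 1.79, 2.05 and 1.99. S1pr1 differed by -0.63, -0.55 and -1.21 on the log2 scale in the same order, and Klf2, which encodes an activator of S1pr1, by -0.56, -0.50 and -1.02.

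Cx3cr1-positive cells held 1872 UMIs of Gzma against 4 in their matched negative cells, over 6 libraries, too few for a steady fold. They had more of the checkpoint gene Lag3 (3.09), Lgals3 (2.92), the lectin receptor genes Klre1 (2.78) and Klrc1 (2.68) and the transcription factor gene Zeb2 (2.67), and less Igfbp4 (-2.55) and Tdrp (-2.55), with 9 of 9 effector genes higher, against 5.21% of all genes. Cxcr5-positive cells had a different set. They had more Ikzf2 (2.55), Foxp3 (2.48), Tiam1 (2.17), Plek (2.13), Tbc1d4 (2.11) and Il2ra (2.08), of which Ikzf2, Foxp3 and Il2ra are regulatory T cell genes, and less Pdlim4 (-2.13), Igfbp4 (-2.10) and Ifngr2 (-1.26). In them 5 of 6 regulatory genes and 6 of 6 follicular helper genes tested (list median 1.29) were higher, including Pdcd1 (1.48), against 3.75% of all genes, while Bcl6 was too scarce in these sums to be tested. Eomes (1.25), Gzmk (1.21), Ifng (0.98), Ccl5 (0.82) and Nkg7 (0.40) were also higher in Cxcr5-positive cells and passed, while Prf1 (0.08) and Ccl4 (-0.31) did not pass. Cxcr4-positive cells showed small differences only. The highest were Pde2a (0.29), Klf3 (0.28), Pde4d (0.28), Rgs2 (0.27), Heatr5a (0.26) and Sgms1 (0.24) and the lowest Ccl4 (-0.71), Ccl5 (-0.70) and Tnfrsf4 (-0.61), with 5 of 7 naive genes higher and 8 of 11 effector genes lower, against 1.85% and 2.23% of all genes. The early-response list (Fos, Fosb, Jun, Junb, Nr4a1, Egr1, Dusp1 and Ier2) had 1 of 8 genes higher and 0 lower in Cxcr4-positive cells.

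Genes whose level followed each receptor over the 24 sums of 8 libraries by 3 gates were read by Pearson correlation of log2(CPM + 1) among 7479 genes. The sums of 1 library share its depth and those of 1 gate its composition, so these values are descriptions. Closest to Ccr9 were Pakap (r 0.937), Cd79b (0.933) and Cd8a (0.923), which sets the CD8 gate. Closest to Cxcr6 were Ctsw (0.974), Pde7a (0.961) and Tcrg-C2 (0.958), to Cxcr3 Adam19 (0.948), Acadl (0.930) and AW112010 (0.927), and to Ccr2 Anxa2 (0.954), Cmtm7 (0.922) and AW112010 (0.904). Closest to Cxcr5 were Smpdl3a (0.942), Pou2f2 (0.935) and Elk3 (0.914), and to Cx3cr1 Tcrg-C2 (0.864), Pde7a (0.858) and Cxcr6 (0.852). Ccr7 was nearest to Vps37b (0.867), Otud1 (0.850) and Yrdc (0.845), and Cxcr4 to Siah2 (0.916), Tsc22d3 (0.876) and Ranbp2 (0.871).

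The study's question was how PPCA acts on the T cells of the pancreas, and PPCA was compared with vehicle over the 3 days, with the day as a block. No receptor passed the adjusted threshold in any gate. In the CD4 gate 0 of 11581 genes passed (0%), with 798 at an unadjusted p under 0.05 and 30 called by DESeq2. In the CD8 gate 0 of 11618 passed (0%), with 912 unadjusted and 41 by DESeq2, and in the Foxp3 gate 6 of 8435 passed (0.0711%), with 548 unadjusted and 6 by DESeq2. Of the receptors, 2 had an unadjusted p under 0.05 in each gate.

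Cxcr4 came nearest to a difference. In CD4 T cells its level on days 2, 3 and 4 was 24.1, 20.5 and 100.04 CPM with vehicle and 48.9, 29.4 and 168 CPM with PPCA. The PPCA library was the higher on each day, by 0.97, 0.34 and 0.70 on the log2 scale, but both day 4 libraries stood above all others, so the arms overlapped across days. The fitted difference was 0.68 (SE 0.130, 95% interval 0.43 to 0.94, edgeR p 0.000969, adjusted p 0.399). In CD8 T cells the levels were 37.7, 24.6 and 65.6 CPM with vehicle and 49.0, 40.8 and 107 CPM with PPCA, a difference of 0.52 (SE 0.10, edgeR p 0.000879, adjusted p 0.338). In Foxp3 T cells they were 28.9, 22.9 and 89.7 CPM with vehicle and 40.4, 19.6 and 203 CPM with PPCA, with no common direction over the days (log2 0.47, -0.33 and 1.18). Without day 3 the Foxp3 difference was 0.90 (edgeR adjusted p 0.0103). Day 3 was the day of opposite sign, so this pass depends on the choice of day. The Cxcr4 result in CD4 T cells passed with DESeq2 (adjusted p 0.00385), with no filter on low counts (0.000382) and with sex added to the model (0.0145). The CD8 result passed with no filter (0.00211) and with sex (0.0110) and not with DESeq2 (0.0981). Each of these settings also called more genes in these 2 gates than the main fit did. The fit with sex has fewer residual degrees of freedom than the main fit.

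The summed level of the early-response list was, like Cxcr4, highest on day 4 in each arm, and the values of days 2 and 3 did not run in parallel. In CD4 T cells it was 2571, 2545 and 4597 CPM with vehicle and 997 (day 2), 2243 and 7770 CPM with PPCA, so both day 4 libraries were the highest as they were for Cxcr4. Within days 2 and 3 the list was lower with PPCA while Cxcr4 was higher. The list in CD8 T cells was at 1444, 1518 and 3563 CPM with vehicle and 582, 1260 and 5138 CPM with PPCA. None of the 8 genes of the list passed the test in any gate, and its part in the Cxcr4 values was not tested.

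**Figure D4:**
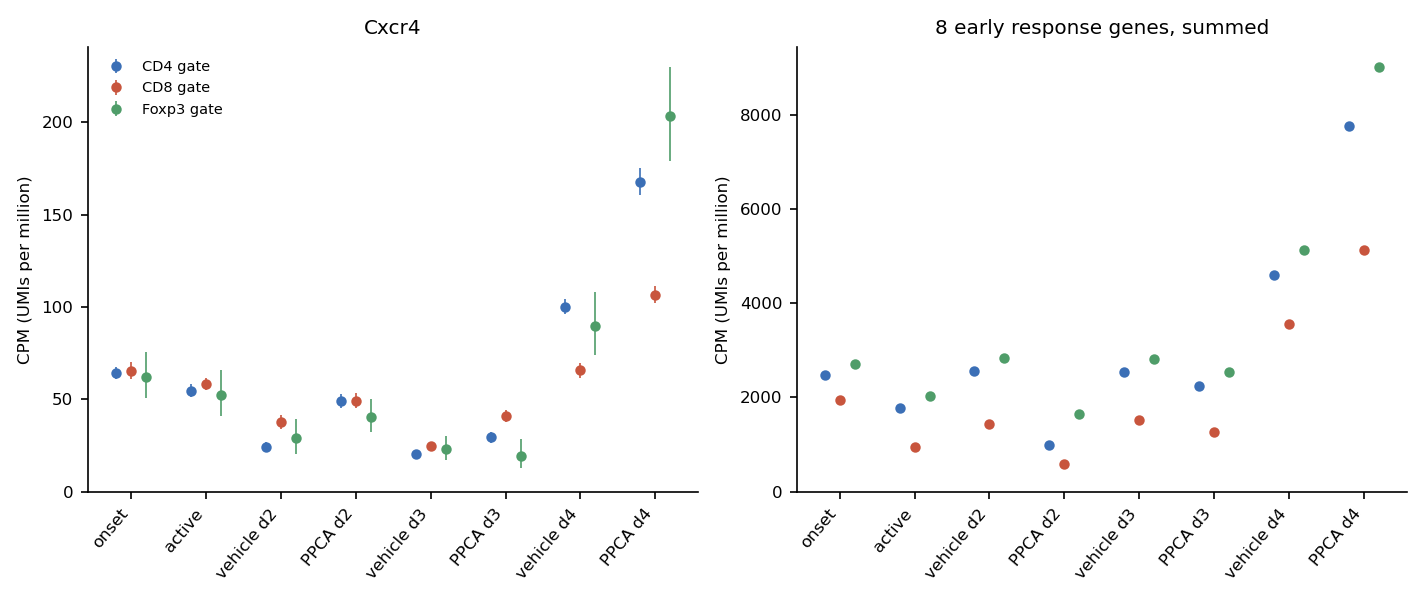
Level of Cxcr4 (left, with exact Poisson 95% intervals) and summed level of 8 early-response genes (right), both in CPM, in each library and gate. Both day 4 libraries stand highest in each panel, with Cxcr4 at 100.04 and 168 CPM in the CD4 gate, and the PPCA library of day 2 stands lowest for the list, at 997 CPM in that gate.

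Cxcr6 was the other receptor that was higher with PPCA on each day in both main gates. In CD4 T cells it was at 16.6, 9.52 and 7.19 CPM with vehicle and 24.5, 11.8 and 18.2 CPM with PPCA on days 2, 3 and 4 (log2 0.66, 95% interval 0.24 to 1.07, adjusted p 0.682, and 0.0219 with no filter on low counts). In CD8 T cells it was at 179, 92.9 and 75.7 CPM with vehicle and 348, 119 and 85.5 CPM with PPCA (log2 0.41, 95% interval 0.12 to 0.70, adjusted p 0.592). The arms overlapped across days in both gates. The differences by day in CD8 T cells were 0.88, 0.17 and 0.16, with the largest on day 2. The libraries differed in Y-linked RNA on days 2 and 4. In CD8 T cells the natural killer list was at 73.8, 25.9 and 28.2 CPM with vehicle and 87.8, 32.6 and 66.3 CPM with PPCA on days 2, 3 and 4. The pancreatic list was at 14.4, 58.1 and 130 CPM with vehicle and 70.8, 38.0 and 79.4 CPM with PPCA, and the part of either list in the Cxcr6 values was not tested.

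Ccr9 in CD8 T cells went in opposite directions by day. It was at 68.4, 81.8 and 91.0 CPM with vehicle and 101, 128 and 42.8 CPM with PPCA. The PPCA library was higher on days 2 and 3 (log2 0.48 and 0.46) and lower on day 4 (-1.09), and the fitted difference was -0.04 (95% interval -0.59 to 0.51, adjusted p 0.978). Without the 2 day 4 libraries it was 0.47 (edgeR adjusted p 0.0362). The day left out was the one of opposite sign, so this pass depends on the choice of day. Ccr9 of Foxp3 T cells was also low in the PPCA library of day 4, at 2.43 CPM against 22.6 CPM with vehicle. Ccr2 of Foxp3 T cells was at 57.0, 41.6 and 44.4 CPM with vehicle and 64.7, 18.8 and 15.4 CPM with PPCA (log2 -0.66, 95% interval -1.22 to -0.11, adjusted p 0.753).

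The remaining receptors gave small or unsteady values. Ccr7 differed by -0.12 in CD4 T cells (95% interval -0.32 to 0.08), -0.11 in CD8 T cells (-0.34 to 0.12) and 0.01 in Foxp3 T cells (-0.24 to 0.25). Cxcr3 differed by 0.20, 0.23 and 0.03 in the 3 gates, with intervals of -0.31 to 0.71, 0.01 to 0.46 and -0.27 to 0.33, and Ccr2 by -0.13 in CD4 and 0.34 in CD8 T cells. These intervals are normal approximations, narrower than the edgeR test implies. That the Cxcr3 interval in CD8 T cells leaves out 0 is therefore not a call. Cxcr5 differed by 0.24 in CD4 T cells (95% interval -0.76 to 1.24) and Cx3cr1 by 0.40 in CD8 T cells (-0.03 to 0.83). A test of whether the PPCA difference itself differed between CD8 and CD4 T cells called 1 of 12173 genes (0.00821%), with 434 unadjusted and 1 by DESeq2, and none of the 8 receptors (adjusted p 1 for each). The largest of these receptor values was 0.55 for Ccr2 (95% interval -0.06 to 1.16). The PPCA fits over all 3 days have 3 libraries a side, with 2 residual degrees of freedom within a gate and 4 in the test between gates. Fits within a gate have fewer when a day is left out or sex is added.

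**Figure D5:**
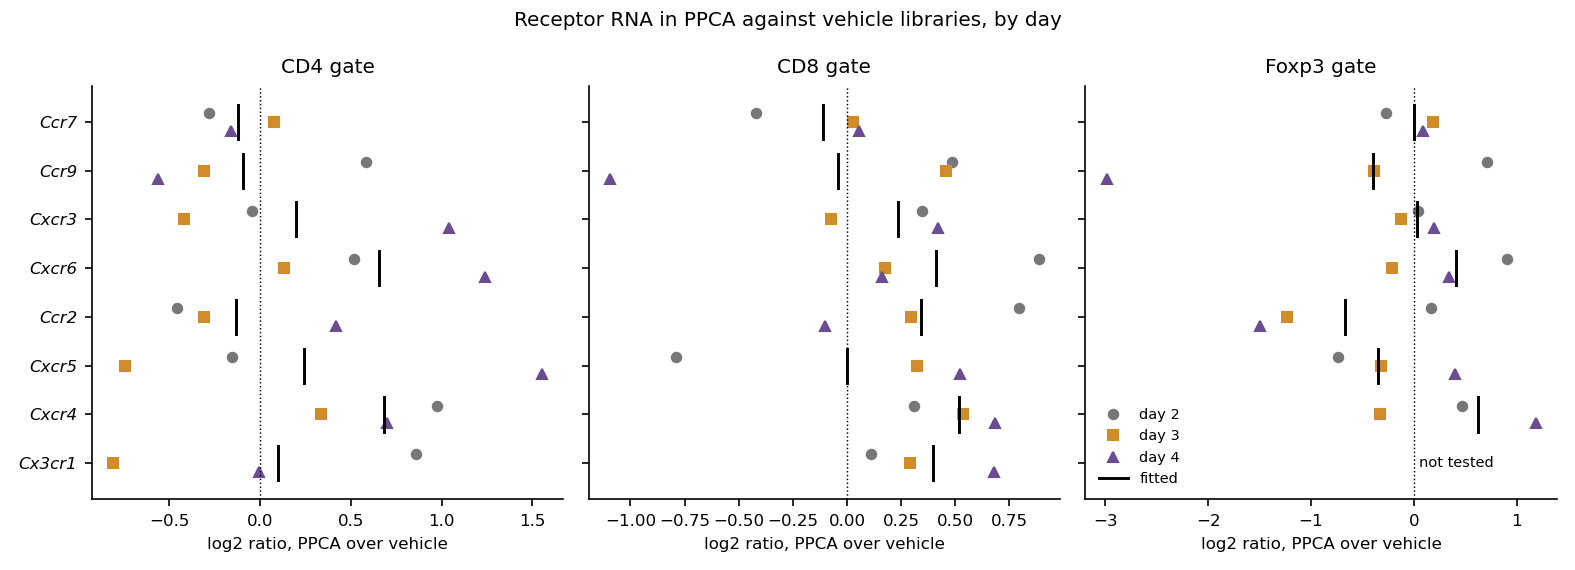
Log2 ratio of PPCA to vehicle for each receptor by day (days 2, 3 and 4) in the CD4, CD8 and Foxp3 gates, 1 point per day, with a black bar at the fitted value. Cxcr4 and Cxcr6 lie above 0 on all 3 days in the CD4 and CD8 gates, and Ccr9 in CD8 T cells lies above 0 on days 2 and 3 and at -1.09 on day 4.

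The active diabetes library was set beside the onset library, with 1 library each and therefore no test. The intervals given are exact Poisson intervals of the ratio at 95% and cover counting error only. In CD8 T cells the active library had less Ccr2 (24.6 against 71.3 CPM, 2.90-fold, log2 -1.53, interval -1.70 to -1.37), less Cxcr6 (142 against 305 CPM, 2.15-fold, log2 -1.10, interval -1.18 to -1.03) and less Cxcr3 (42.5 against 83.2 CPM, log2 -0.97, interval -1.10 to -0.84). Ccr2 and Cxcr6 were the 2 receptors that differed by 2-fold or more where the higher library reached 10 CPM, as did 1.62% of 7457 genes that reached it. Ccr7 was higher in the active library (227 against 176 CPM, log2 0.37), and Ccr9 (log2 -0.25) and Cxcr4 (-0.16) were slightly lower. Cxcr5 stood at 91 against 13 UMIs, or 4.44 against 1.14 CPM, below that level. The natural killer list, mostly Klrk1, was also lower in CD8 T cells of the active library, at 31.2 CPM against 118 CPM at onset, as were the pancreatic list, at 8.93 against 25.7 CPM, and the early-response list, at 943 against 1948 CPM, and their part in these differences was not tested.

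In CD4 T cells no receptor was 2-fold apart, as against 0.757% of 7395 genes. Ccr7 was higher in the active library (log2 0.30, interval 0.24 to 0.36), and Cxcr3 (-0.50), Ccr9 (-0.47) and Cxcr4 (-0.24) were lower with intervals that leave out 0. In Foxp3 T cells no receptor was 2-fold apart either, as against 4.82% of 7992 genes, and apart from Ccr7 (log2 0.33, interval 0.09 to 0.57) every interval included 0. The Y-linked genes were at 0.166 CPM in the active and 0.120 CPM in the onset library.

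The authors' deposited table of genes that mark their 7 clusters listed 5 of the 8 receptors. In the authors' deposited table Ccr9 marked the cluster CD8 TCM (log2 fold change 1.12, in 36.5% of its cells and 1.7% of the others). Cxcr6 (2.87, 71.4% and 8%), Cxcr3 (1.68, 58.4% and 4.2%) and Ccr2 (1.59, 43.6% and 1.2%) marked the cluster CD8 TRM TEM in the authors' deposited table. The same authors' deposited table gave Cxcr3 (0.95, 33.8% and 6.5%) and Ccr2 (0.49, 13.1% and 3.7%) for the cluster CD4 Th17 and Ccr7 (0.35, 70.7% and 55.7%) for CD4 Naive. Ccr9 was thus listed for another CD8 cluster than Cxcr6, Cxcr3 and Ccr2, in clusters that rest on the same cells as the comparisons above.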

How the data were processed

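Single-cell RNA was measured with a droplet 10x assay in 8 libraries. The deposited counts are raw UMIs per gene and barcode, made with Cell Ranger (6.0.0 per the file headers, 6.1.2 per the submitters' processing notes, which also name Seurat). No source used here gives the genome build. The authors' deposited marker table gives log2 fold changes, the fraction of cells with each gene (printed here as a percent) and p-values, which were not used; how it was tested is not given.

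Barcodes with at least 500 genes, under 10% mitochondrial UMIs and at most 1 UMI over 6 B and myeloid genes were kept. For doublets, the barcodes with the highest Scrublet scores (scanpy 1.11.5) were removed, 0.8% for each 1000 barcodes of a library, because the automatic threshold called 0 to 2 per library. UMIs were summed per library and gate and tested with edgeR 4.0.16 (R 4.3.3, limma 3.58.1, TMM, filterByExpr, quasi-likelihood, Benjamini-Hochberg over all genes tested), with the library or day as a block. The genes that set a gate (Cd4, Cd8a, Cd8b1, Foxp3 or the receptor itself) were left out of the counts. Intervals of fold changes are 95% intervals by the normal quantile of the standard error. They take no account of the few residual degrees of freedom, so those of the PPCA fits are narrower than the test implies. Receptor-positive and negative cells were matched in bins of 0.25 log2 of total UMIs, with at least 30 pairs in each of at least 4 libraries. Log2 ratios of single libraries carry a pseudocount of 0.5. Numpy 2.4.6, scipy 1.17.1 and matplotlib 3.10.9 were used. The edgeR step was tested on simulated data with 200 genes changed 2-fold.

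Replicate numbers are the treatment days. Same-day libraries deviated together in each gate, with correlations of 0.362, 0.360 and 0.544 in CD4, 0.384, 0.561 and 0.560 in CD8 and 0.168, 0.195 and 0.374 in Foxp3 T cells, so the day was kept as a block. P-values measure the spread between these libraries, which may be technical in part. Intervals on counts and shares cover counting error only.

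The receptors, gates and gene lists were chosen with earlier results of these data known. Genes were named by rule: the receptors; other chemokine receptor and homing genes that passed; for each receptor the 6 highest and 3 lowest companions past the threshold with at least 20 CPM and the same sign in all but at most 1 library; the 3 genes with the closest pattern among those averaging at least 10 CPM; and a short list of homing and effector regulators. Some genes under this rule are not reported here. Alternatives were DESeq2 1.42.0, RLE size factors, no filter on low counts, no block, looser cell filters (200 genes, 20% mitochondrial UMIs), no doublet removal, no B and myeloid limit, no depth matching, no thinning or thinning to 1000 UMIs, sex as a factor, a 1.5-fold threshold, and leaving out libraries.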

Additional observations from a re-analysis of the deposited data

How the results depend on the processing

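Depth limits the receptors with few UMIs: single libraries held 1 to 37 Cx3cr1 UMIs in CD4 T cells and 9 to 42 Cxcr5 UMIs in Foxp3 T cells. Over the alternatives, the 8 receptors between gates kept direction and side of the threshold in 245 settings, lost the call in 13 and changed sign in 4. Between receptor-positive and negative cells this was 274, 21 and 4, with 8 calls gained. For PPCA it was 291 unchanged, 30 sign changes and 8 gained, with most PPCA values inside their error. Shares of cells with a UMI moved in 34 of the settings with another depth or filter and did not in 38. The cause of each change was not tested.

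With no replicate block, that is without pairing the sums of a library, the genes called numbered 2026 for CD8 against CD4 (5365 with the block), 2279 for Foxp3 (4094), 487 for Ccr7-positive cells (2701), 335 for Ccr9 (1572), 1629 for Cxcr3 (3728), 563 for Cxcr6 (2580), 1996 for Ccr2 (3242), 107 for Cxcr5 (356), 0 for Cxcr4 (435) and 198 for Cx3cr1 (473). It gave 0 against 6 for PPCA in Foxp3 T cells and 0 against 1 for its interaction with the gate. Ccr7 and Cxcr5 in CD8 T cells and Ccr7 and Cxcr4 in Foxp3 T cells were not called without the block. Without the 4 libraries with Y-linked RNA, 974 genes were called for Ccr9 and 84 for Cxcr5. For PPCA in CD4 T cells DESeq2 called 30, no low-count filter 176, the sex factor 83 and fits without a day 0 to 21. In CD8 T cells these were 41, 160, 130 and 0 to 170. In Foxp3 T cells no filter gave 90, the sex factor 21 and fits without a day 1 to 57, and for the interaction no filter gave 57 and fits without a day 0 to 0. At 1.5-fold the active and onset libraries differed in 297 genes in CD4 (56 at 2-fold), 460 in CD8 (121) and 1424 in Foxp3 T cells (385).

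The log2 difference of Cxcr4 between CD8 and CD4 T cells was 0.0638 with DESeq2, 0.25 without both day 4 libraries and -0.0851 to 0.10 with 1 library left out. Ccr2 in Cxcr5-positive cells was 0.0183 with no block, Cxcr4 in them -0.21 with no depth matching, and Cxcr5 in Cxcr4-positive cells -0.10 without the Y-linked libraries and -0.11 with no doublet removal. For PPCA with 1 day left out, values in CD4 T cells ran from -0.41 to 0.0694 for Ccr2, -0.49 to 0.18 for Ccr9, -0.57 to 0.61 for Cx3cr1 (-0.0419 with DESeq2), -0.23 to 0.50 for Cxcr3 and -0.51 to 0.81 for Cxcr5. In CD8 T cells they ran from -0.20 to 0.0413 for Ccr7, -0.31 to 0.47 for Ccr9 (0.0341 with no block) and -0.25 to 0.49 for Cxcr5 (-0.16 with no block, -0.0049 with no B and myeloid limit). In Foxp3 T cells they ran from -0.0922 to 0.13 for Ccr7 (-0.0037 with no filter, -0.0211 with no doublet removal), -1.22 to 0.19 for Ccr9 and -0.0374 to 0.10 for Cxcr3. For the interaction they ran from -0.0939 to 0.0809 for Ccr7 (-0.0008 with the sex factor), -0.33 to 0.34 for Ccr9, -0.18 to 0.45 for Cxcr3 (-0.0107 with sex), -0.25 to 0.0405 for Cxcr4, -1.05 to 0.23 for Cxcr5 and -0.58 to 0.25 for Cxcr6.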
